A study of Mus musculus with 8 samples.

Results

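The 8 libraries of an siRNA experiment in C2C12 cells were divided by replicate number, with replicates 1 and 2 of both siRNA groups set against replicates 3 and 4. All 8 of the 8 libraries entered, 4 on each side, and 11025 of the 21879 genes in the table, those with a mean of at least 1 FPKM (fragments per kilobase of gene, scaled to the number mapped). The division was not a labelled treatment: it was picked because the expression values themselves separated the libraries this way. Every difference between the sets below is therefore a description with no test, and no cause is named by the labels. C2C12 is a line of mouse myoblasts, which leave the cell cycle and fuse into multinucleate myotubes in low serum. The groups were siFAM129B (siRNA against Fam129b, also known as Niban2, 4 libraries) and siNC (control siRNA, 4 libraries), in unmodified C2C12 cells otherwise alike by label, all marked as muscle differentiation; the design names muscle atrophy as the interest. Growth was in 10% fetal bovine serum and differentiation in 2% horse serum, with siRNA delivered by lipid transfection and RNA selected on poly(T). The labels give no time in differentiation medium and do not say whether replicates were separate cultures, so their spread may be technical.

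Differentiating myoblasts switch on the myogenic regulators MyoD and myogenin, which activate the genes of the sarcomere, the calcium store and the acetylcholine receptor, while DNA replication genes driven by E2F factors are switched off. Myoblasts also secrete cytokines, chemokines and matrix, many of them under NF-kB and C/EBP factors. Ribosome biogenesis, the making of ribosomal RNA and its assembly with proteins in the nucleolus, accompanies growth and is driven in part by Myc.

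Libraries of replicates 1 and 2 had more muscle, cytokine and matrix transcripts, and fewer transcripts of DNA replication and ribosome biogenesis, than libraries of replicates 3 and 4; the ribosome biogenesis list was written for its direction after the values had been seen. A gene was counted where the fitted log2(FPKM + 1) difference, with siRNA group as covariate, reached 1.5-fold and where, within siFAM129B and within siNC, both libraries of replicates 1 and 2 lay on the same side of both libraries of replicates 3 and 4. By this count 183 genes (1.66% of 11025) were higher in replicates 1 and 2 and 70 (0.635%) were lower. Since the division was chosen on these values, nothing is read from these shares. With no size limit, 1556 genes (14.1%) were higher without overlap in either siRNA group and 1543 (14%) were lower. Over all genes tested the median difference was 0.01, with 52.4% of genes above 0 and 47.6% below. The same count applied to siFAM129B against siNC, with the sets as covariate, held 9 genes (0.0816%) higher and 8 (0.0726%) lower with siFAM129B. The median size of a gene's difference was 0.15 between the sets and 0.12 between the siRNA groups. The sets were picked on these values and the siRNA groups were fixed by the design. Their counts and sizes are therefore not ranked against each other.

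The library siFAM129B replicate 4 stood apart from the other 7, and it belongs to the second set. On the first principal component, which held 68.9% of the variance, it lay at -53.5 and the others between 3.37 and 13.0. On the second, which held 18.8%, the 4 libraries of replicates 1 and 2 lay between 7.33 and 12.1, siFAM129B replicate 4 at 2.17, and the other 3 libraries of replicates 3 and 4 at -7.74, -11.3 and -19.3. Without that library the first component (59.7%) placed replicates 1 and 2 between 8.19 and 12.1 and replicates 3 and 4 at -7.38, -11.6 and -19.1. Its FPKM values summed to 470385, against 391336 to 398292 in the other libraries, and its depth was in their range: recovered reads were between 31466869 and 36031688 over all 8. Leaving it out, 130 genes (1.18%) were higher in replicates 1 and 2 and 31 (0.281%) lower, with 49.9% of all genes above 0 and 50.1% below. Of the genes counted over all 8 libraries, 94 of the higher and 27 of the lower were also counted without it. The median size of the set difference was then 0.11, against 0.06 for the siRNA difference, and for the same reason they are not ranked. In 38 of the higher and 2 of the lower genes the log2 difference was over 1.5 times smaller without it.

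**Figure D1:**
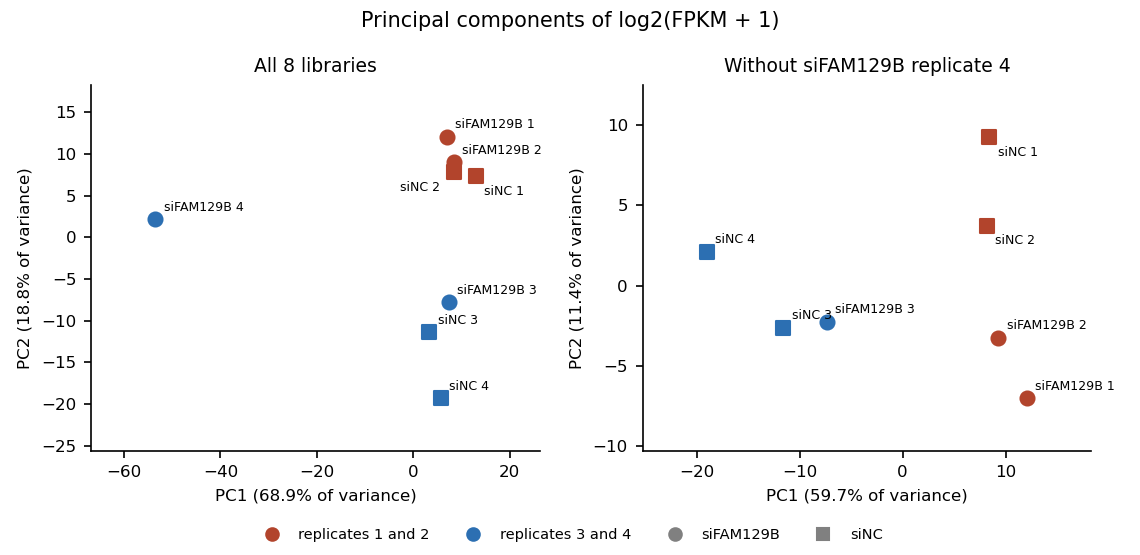
Principal components of log2(FPKM + 1) over 11025 genes for all 8 libraries (left) and without siFAM129B replicate 4 (right); each point is a library, red for replicates 1 and 2 and blue for replicates 3 and 4, circles for siFAM129B and squares for siNC. On the left siFAM129B replicate 4 lies alone at -53.5; on the right the first component places all 4 libraries of replicates 1 and 2 above 8 and all 3 of replicates 3 and 4 below -7.

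The fitted difference of a gene is given below as its log2 value ± SE over all 8 libraries, with the value over the 7 libraries other than siFAM129B replicate 4 beside it. The targeted gene was checked first. Fam129b had 91.6 and 87.0 FPKM with siFAM129B and 154 and 163 FPKM with siNC in replicates 1 and 2, against 87.3 and 128 FPKM with siFAM129B and 179 and 175 FPKM with siNC in replicates 3 and 4. It was lower with siFAM129B than with siNC in both sets, with the highest siFAM129B value in replicate 4. Its difference between the sets was -0.20 ± 0.12 (-0.08 over 7 libraries), and its siFAM129B minus siNC difference was -0.78 ± 0.12 (SE).

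The set differences of the siRNA groups share no library, but the division was picked on the values of both groups, so their likeness is a description and no independent evidence. Across 11025 genes the difference in siFAM129B and that in siNC had a Pearson correlation of 0.52, and 0.70 without siFAM129B replicate 4; genes are not independent replicates, and each difference carries the counting error of its own 4 libraries. The siRNA by set interaction, which is not the measure that the division was picked on, asks whether the effect of siFAM129B differed between the sets. limma called 0 of 11025 genes at an adjusted p of 0.05, with 98 genes at an unadjusted p under 0.05, where 551 would be the 5% share. The smallest adjusted p was 0.895. With arms of 2 libraries, and siFAM129B replicate 4 adding to the spread, 0 calls does not show that the siRNA effect was alike in both sets. The voom fit on recovered reads also called 0, with 78 genes at an unadjusted p under 0.05. Without siFAM129B replicate 4 limma called 0, with 655 genes at an unadjusted p under 0.05 and a smallest adjusted p of 0.413. Without siFAM129B replicate 3, where replicate 4 stands alone for its set and is assumed to vary like the others, limma called 6005 genes. Of the 5 genes with the largest interaction, Zbed6, Lmbrd2, Uhmk1 and Lnpep were low in siFAM129B replicate 4 alone: Zbed6, for example, had 31.2 and 29.9 FPKM with siFAM129B and 31.1 and 28.5 FPKM with siNC in replicates 1 and 2, against 30.3 and 1.24 FPKM with siFAM129B and 29.2 and 27.9 FPKM with siNC in replicates 3 and 4. The fifth, Gm10705, varied between libraries of every group, with 8.08 and 10.3 FPKM with siFAM129B and 0.882 and 3.99 FPKM with siNC in replicates 1 and 2, against 1.00 and 2.25 FPKM with siFAM129B and 10.1 and 4.43 FPKM with siNC in replicates 3 and 4.

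**Figure D2:**
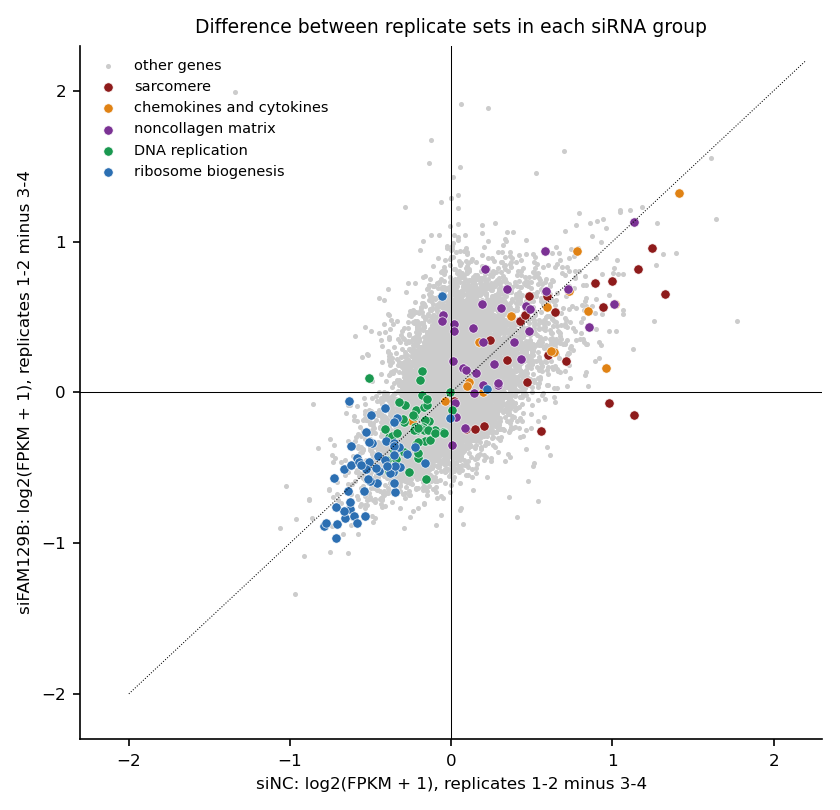
Difference in log2(FPKM + 1), replicates 1 and 2 minus 3 and 4, within siFAM129B (vertical axis) against within siNC (horizontal axis); each grey point is a gene of 11025, coloured points are members of 5 lists, and the dotted line marks equal differences. Sarcomere, cytokine and matrix genes lie mostly to the upper right and DNA replication and ribosome biogenesis genes to the lower left; the Pearson correlation over all genes was 0.52.

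Most muscle genes tested had higher values in replicates 1 and 2, and a minority were counted. Of 128 muscle genes listed, 74 passed the filter on mean FPKM, with 63 above 0 and 11 below. Some passed only through high values in replicates 1 and 2, as given below for the sarcomere list. The count held 12 as higher and 1 as lower, against 1.66% and 0.635% of all genes. The median difference was 0.27, against 0.01 for all genes. Without siFAM129B replicate 4 the median was 0.26, with 10 counted higher and 1 lower. In bulk RNA such as this, fewer cells of a type and less RNA per cell cannot be told apart. Myog, which encodes myogenin, had 6.80 and 6.77 FPKM with siFAM129B and 13.9 and 14.3 FPKM with siNC in replicates 1 and 2, against 2.10 and 2.58 FPKM with siFAM129B and 7.51 and 4.21 FPKM with siNC in replicates 3 and 4. Within each siRNA group every library of replicates 1 and 2 lay above every library of replicates 3 and 4, and within each set siFAM129B libraries lay below siNC libraries. The Myog set difference was 1.20 ± 0.15 (1.24 over 7 libraries); its siFAM129B minus siNC difference was -0.98 ± 0.15 (SE). The interaction for Myog was 0.04 on the log2 scale (limma adjusted p = 0.972). Acta1, the skeletal actin of the thin filament, had 5.10 and 5.19 FPKM with siFAM129B and 10.5 and 10.4 FPKM with siNC in replicates 1 and 2, against 2.00 and 2.34 FPKM with siFAM129B and 4.58 and 3.18 FPKM with siNC in replicates 3 and 4. The sets did not overlap within either siRNA group, and the difference was 1.10 ± 0.12 (1.16 over 7 libraries).

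The regions before the starts of Myog and Acta1 are shown because both genes differed between the sets and between the siRNA groups. They come from RefSeq on GRCm38.p6, while the expression table was made on mm9 per the submitters' processing notes. Windows from 250 bases before to 50 after the start were found for 8550 of the 11025 genes tested and searched on both strands; the 250 bases before the start are printed. In Myog (chr1:134289754-134290003, plus strand) capitals mark 2 E-boxes, CANNTG with N any base, the letters bound by MyoD and myogenin, beginning 138 and 12 bases before the start. In Acta1 (chr8:123894776-123895025, minus strand) capitals mark a CArG box, bound by serum response factor, 73 bases before the start.
Myog: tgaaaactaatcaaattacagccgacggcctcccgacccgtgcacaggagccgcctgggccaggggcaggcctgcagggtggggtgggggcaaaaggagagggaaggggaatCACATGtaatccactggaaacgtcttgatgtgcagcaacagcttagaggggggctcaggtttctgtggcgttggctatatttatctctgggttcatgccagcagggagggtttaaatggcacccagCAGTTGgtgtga
Acta1: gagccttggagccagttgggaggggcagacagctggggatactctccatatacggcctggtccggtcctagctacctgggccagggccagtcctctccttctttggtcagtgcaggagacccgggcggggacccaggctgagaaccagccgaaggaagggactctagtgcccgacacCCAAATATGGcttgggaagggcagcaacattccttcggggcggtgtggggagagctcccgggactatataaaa
E-boxes are frequent: 72.1% of all 27025 windows, 61.6% of those of tested genes and 83.3% of the 18 sarcomere windows held at least 1, a CACGTG counting as an E-box too. The share was 50% of 10 myogenic regulator windows, 42.9% of 7 fusion and 40% of 5 calcium handling windows, all under that of tested genes, and 83.3% of 6 acetylcholine receptor and junction windows. A CArG box was in 1.57% of all windows, 1.33% of those of tested genes and 16.7% of sarcomere windows. A match of letters describes the window and shows no binding.

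Of the myogenic regulators, Myog included, 13 of 14 tested were above 0, with 2 counted higher and a median of 0.33. Without siFAM129B replicate 4, 13 were above 0, with 1 counted higher and a median of 0.25. Myf5, an early myogenic factor, had 13.96 ± 2.44 FPKM in replicates 1 and 2 and 9.38 ± 3.31 FPKM in replicates 3 and 4 (SD, n = 4 each), a difference of 0.59 ± 0.20 (0.35 over 7 libraries); it left the count over 7 libraries. Myod1, which encodes MyoD, had 37.6 ± 1.27 FPKM in replicates 1 and 2 and 33.1 ± 6.17 FPKM in replicates 3 and 4 (SD, n = 4 each), a difference of 0.20 ± 0.12 (0.30 over 7 libraries). The sets overlapped through siFAM129B replicate 4 alone, at 41.3 FPKM, and the other 3 libraries of replicates 3 and 4 lay between 26.9 and 33.96 FPKM, below all of replicates 1 and 2.

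The sarcomere list had the highest median of the muscle lists, 0.46, with 19 of 23 tested members above 0 and 8 counted higher. Without siFAM129B replicate 4 the median was 0.52, with 22 above 0 and 7 counted. Of the 52 listed, 29 were below the filter. Tnni1, Tnni2, Tnnt3 and Klhl41, all counted, averaged 0.949, 0.634, 0.907 and 0.883 FPKM in replicates 3 and 4. Actc1, Tmod1, Nrap and Ttn also averaged under 1 FPKM there. Such members passed the filter only through replicates 1 and 2, so these counts and the median lean upward by selection. Tnni1, slow troponin I, had 2.01 and 1.63 FPKM with siFAM129B and 4.13 and 4.11 FPKM with siNC in replicates 1 and 2, against 0.439 and 1.22 FPKM with siFAM129B and 1.42 and 0.714 FPKM with siNC in replicates 3 and 4. Mylpf, the fast regulatory light chain, had 7.49 and 8.61 FPKM with siFAM129B and 11.5 and 12 FPKM with siNC in replicates 1 and 2, against 3.13 and 5.38 FPKM with siFAM129B and 5.29 and 4.21 FPKM with siNC in replicates 3 and 4. For both, the lowest library of replicates 1 and 2 in each siRNA group lay above the highest of replicates 3 and 4, and the differences were 0.99 ± 0.20 (1.18 over 7 libraries) for Tnni1 and 0.99 ± 0.16 (1.15 over 7 libraries) for Mylpf. Myl1, an essential light chain, differed by 0.87 ± 0.15 (0.97 over 7 libraries). Titin, Ttn, had 1.38 ± 0.418 FPKM in replicates 1 and 2 and 0.963 ± 0.464 FPKM in replicates 3 and 4 (SD, n = 4 each), a difference of 0.29 ± 0.11 (0.19 over 7 libraries), and was not counted. A pair of more abundant sarcomere genes, picked after their values were seen, differed little. Tnnt2, cardiac troponin T, averaged 36.9 FPKM in replicates 1 and 2 and 40.3 FPKM in replicates 3 and 4, and Tpm2, beta-tropomyosin, 78.4 FPKM in replicates 1 and 2 and 83.5 FPKM in replicates 3 and 4. Over all 8 libraries they differed by -0.08 for Tnnt2 and -0.05 for Tpm2, and over 7 libraries by 0.12 for Tnnt2 and 0.14 for Tpm2.

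Calcium handling genes were above 0 in 11 of 11, with a median of 0.38 and 1 counted. Without siFAM129B replicate 4, 9 were above 0 and 2 below, with a median of 0.32 and 1 counted. The more abundant Atp2a2 averaged 108.5 FPKM in replicates 1 and 2 and 110.6 FPKM in replicates 3 and 4. Its difference was 0.02 (-0.19 over 7 libraries). The counted gene was Atp2a1, the fast-muscle calcium pump. It had 3.12 and 2.71 FPKM with siFAM129B and 4.84 and 4.56 FPKM with siNC in replicates 1 and 2, against 1.70 and 2.21 FPKM with siFAM129B and 2.05 and 1.58 FPKM with siNC in replicates 3 and 4, a difference of 0.71 ± 0.15 (0.83 over 7 libraries). The acetylcholine receptor and junction list had a median of 0.11, with 7 of 9 above 0 (0.14 and 8 of 9 without siFAM129B replicate 4). Its counted member Chrng, the fetal receptor gamma subunit, had 3.81 and 4.13 FPKM with siFAM129B and 6.51 and 5.32 FPKM with siNC in replicates 1 and 2, against 2.57 and 2.87 FPKM with siFAM129B and 2.51 and 2.88 FPKM with siNC in replicates 3 and 4. Chrng values did not overlap between the sets in either siRNA group, with a difference of 0.66 ± 0.13 (0.73 over 7 libraries). Fusion and adhesion genes had a median of 0.21, with 12 of 14 above 0 and 0 counted. Without siFAM129B replicate 4 the median was 0.12, with 11 above 0 and 0 counted. Tmem8c, the fusion protein myomaker, had 6.44 ± 2.14 FPKM in replicates 1 and 2 and 4.94 ± 0.846 FPKM in replicates 3 and 4 (SD, n = 4 each), a difference of 0.29 ± 0.13 (0.38 over 7 libraries). In the short list of muscle enzymes, with 3 tested, Fabp3, a fatty acid carrier, was the gene counted lower. It had 1.14 and 0.887 FPKM with siFAM129B and 0.998 and 1.45 FPKM with siNC in replicates 1 and 2, against 3.12 and 3.29 FPKM with siFAM129B and 2.62 and 2.28 FPKM with siNC in replicates 3 and 4. Every library of replicates 1 and 2 was below every library of replicates 3 and 4, at -0.85 ± 0.12 (-0.80 over 7 libraries).

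Most inflammatory genes tested had higher values in replicates 1 and 2, and a minority were counted. Of 68 present, 48 passed the filter, with 41 above 0 and 7 below. The count held 9 as higher and 0 as lower, against 1.66% and 0.635% of all genes. The median was 0.26 (0.25 without siFAM129B replicate 4, with 10 counted higher). Il6, a cytokine that myoblasts secrete, had 5.51 and 6.04 FPKM with siFAM129B and 7.31 and 5.69 FPKM with siNC in replicates 1 and 2, against 1.92 and 1.51 FPKM with siFAM129B and 1.81 and 1.80 FPKM with siNC in replicates 3 and 4. All 4 libraries of replicates 1 and 2 were above 5 FPKM and all 4 of replicates 3 and 4 were under 2, and the difference was 1.37 ± 0.10 (1.33 over 7 libraries). Il33, a nuclear alarmin, had 84.6 and 79.7 FPKM with siFAM129B and 85.9 and 77.4 FPKM with siNC in replicates 1 and 2, against 56.2 and 31.9 FPKM with siFAM129B and 48.8 and 45.3 FPKM with siNC in replicates 3 and 4. Il33 did not overlap between the sets, at 0.86 ± 0.16 (0.68 over 7 libraries), and its lowest value was in siFAM129B replicate 4. Tslp, a cytokine related to interleukin 7, differed by 0.70 ± 0.09 (0.71 over 7 libraries). The chemokine Ccl5 differed by 0.80 ± 0.24 (0.91 over 7 libraries). Other members of the list differed less. Ccl2, which draws monocytes, had 94.7 ± 6.48 FPKM in replicates 1 and 2 and 88.3 ± 6.46 FPKM in replicates 3 and 4 (SD, n = 4 each), a difference of 0.10 ± 0.08 (0.17 over 7 libraries).

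Il6 is shown as the cytokine with the largest difference (chr5:30012864-30013113, plus strand, RefSeq GRCm38.p6). Capitals mark the NF-kB motif 44 bases before the start.
Il6: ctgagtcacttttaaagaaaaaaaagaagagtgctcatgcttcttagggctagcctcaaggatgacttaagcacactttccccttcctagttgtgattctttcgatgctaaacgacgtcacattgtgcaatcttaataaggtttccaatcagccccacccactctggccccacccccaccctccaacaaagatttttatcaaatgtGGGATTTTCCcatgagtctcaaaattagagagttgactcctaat
The NF-kB motif was in 8.18% of all windows and 10.3% of those of tested genes, against 50% of the 8 chemokine and cytokine windows and 48.0% of the 25 windows of the NF-kB list, whose genes were listed partly because NF-kB is known to act on them.

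In the NF-kB list 27 of 32 tested members were above 0, 4 were counted higher and the median was 0.19. Cebpd, the factor C/EBP delta of the acute-phase response, had 19.1 and 15.2 FPKM with siFAM129B and 13.6 and 14.2 FPKM with siNC in replicates 1 and 2, against 5.97 and 8.86 FPKM with siFAM129B and 5.26 and 5.06 FPKM with siNC in replicates 3 and 4. C3, the central complement component, had 13.4 and 9.64 FPKM with siFAM129B and 11.6 and 9.82 FPKM with siNC in replicates 1 and 2, against 5.38 and 5.76 FPKM with siFAM129B and 4.55 and 2.98 FPKM with siNC in replicates 3 and 4. Saa3, an acute-phase serum amyloid, had 11.2 and 8.73 FPKM with siFAM129B and 13.9 and 9.78 FPKM with siNC in replicates 1 and 2, against 6.32 and 7.42 FPKM with siFAM129B and 3.39 and 2.15 FPKM with siNC in replicates 3 and 4. For all 3 genes the sets did not overlap within either siRNA group, with differences of 1.20 ± 0.13 (1.31 over 7 libraries) for Cebpd, 1.11 ± 0.16 (1.17 over 7 libraries) for C3 and 1.12 ± 0.28 (1.29 over 7 libraries) for Saa3. Within siFAM129B, Saa3 differed by 0.48 and within siNC by 1.77; the interaction was -1.29 (limma adjusted p = 0.895). Nfkbiz, an atypical I-kappa-B protein, differed by 0.89 ± 0.23 (0.62 over 7 libraries). Cxcl13, a B cell chemokine outside the lists, had 7.29 and 6.95 FPKM with siFAM129B and 8.44 and 8.09 FPKM with siNC in replicates 1 and 2, against 3.65 and 2.94 FPKM with siFAM129B and 2.66 and 2.39 FPKM with siNC in replicates 3 and 4. Its sets did not overlap, and the difference was 1.16 ± 0.12 (1.16 over 7 libraries). Macrophage markers were measured beside these lists: Adgre1 and Itgam were listed at 0 in all 8 libraries, and the 8 markers summed to 18.6 to 21.0 FPKM in replicates 1 and 2 and 16.7 to 21.1 FPKM in replicates 3 and 4, most of it Cd14. The sums overlapped through siFAM129B replicate 4 alone; the other 3 libraries of its set were at 16.7 to 17.3 FPKM, below all of replicates 1 and 2, and the part of these markers in the result was not tested.

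**Figure D3:**
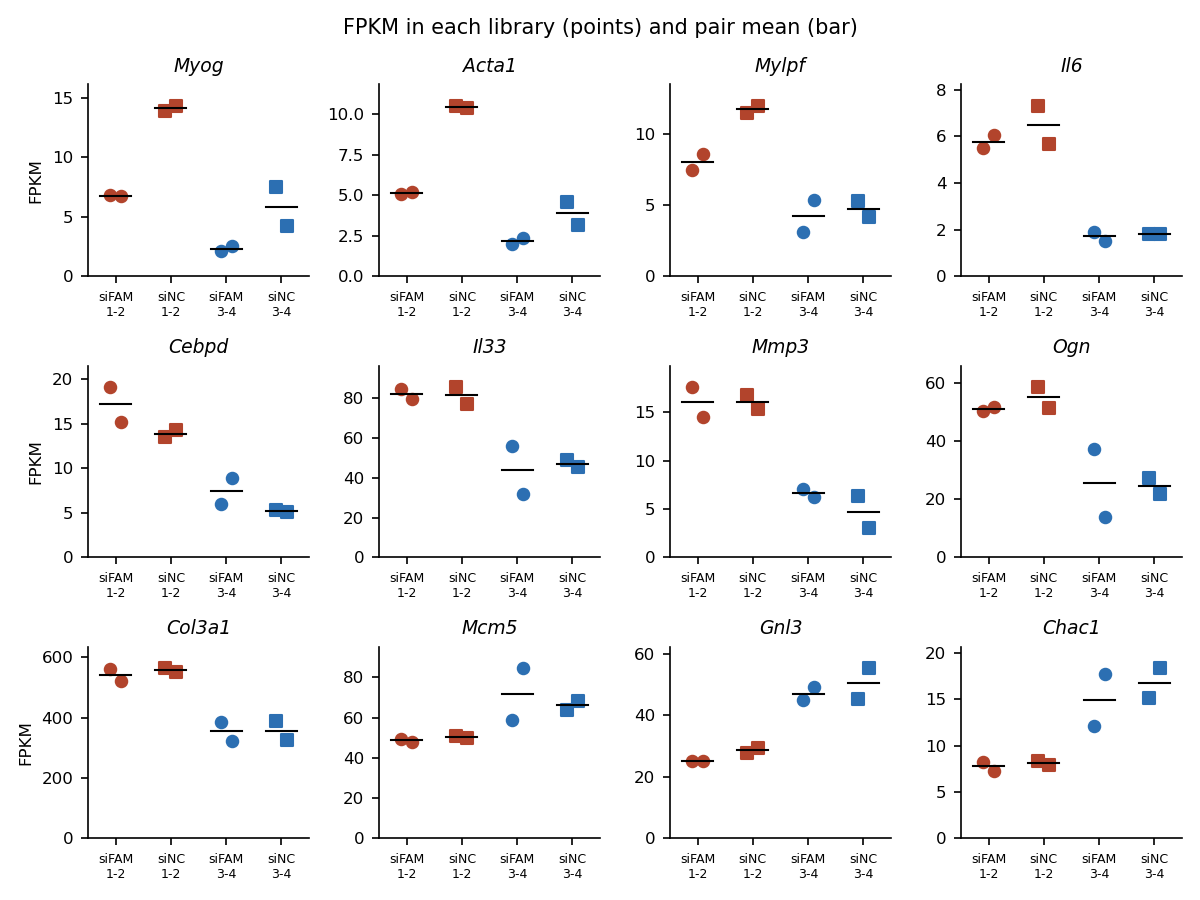
FPKM of 12 genes in each library (points; red for replicates 1 and 2, blue for replicates 3 and 4; circles for siFAM129B, squares for siNC), with a bar at the mean of each pair and linear axes from 0. In Myog and Acta1 both the set and the siRNA divide the libraries, while Il6, Mmp3 and Col3a1 divide by set; Mcm5, Gnl3 and Chac1 are lower in replicates 1 and 2.

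Most interferon genes had slightly higher values in replicates 1 and 2, but few were apart by the count. Of 74 present, 48 passed the filter, 36 were above 0 and 12 below, 1 was counted higher, a share near the 1.66% over all genes, and 0 lower, and the median was 0.18 (0.16 without siFAM129B replicate 4). The counted gene was Rtp4, an interferon-induced chaperone, with 4.10 and 4.51 FPKM with siFAM129B and 4.31 and 3.00 FPKM with siNC in replicates 1 and 2, against 2.53 and 1.88 FPKM with siFAM129B and 2.33 and 1.84 FPKM with siNC in replicates 3 and 4. Its difference was 0.66 ± 0.13 (0.58 over 7 libraries), and it left the count over 7 libraries. Isg15, a ubiquitin-like protein, had 4.45 and 3.84 FPKM with siFAM129B and 4.91 and 3.03 FPKM with siNC in replicates 1 and 2, against 2.35 and 2.91 FPKM with siFAM129B and 1.90 and 2.61 FPKM with siNC in replicates 3 and 4. Isg15 did not overlap within either siRNA group; it missed 1.5-fold over all 8 libraries and passed it over 7, at 0.55 ± 0.14 (0.60 over 7 libraries). Xaf1, an interferon-induced pro-apoptotic protein, differed by 0.39 ± 0.08 (0.40 over 7 libraries). In antigen presentation 10 of 14 were above 0 with 0 counted, and H2-T23, a nonclassical class I molecule whose reads may be shared with related H2 genes, had 34.3 ± 2.54 FPKM in replicates 1 and 2 and 27.4 ± 7.26 FPKM in replicates 3 and 4 (SD, n = 4 each), a difference of 0.35 ± 0.13 (0.47 over 7 libraries).

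Isg15 is shown for its interferon-stimulated response element (chr4:156200819-156201068, minus strand, RefSeq GRCm38.p6). Capitals mark 3 overlapping matches, each GAAA followed by NN and GAAA again, the first 78 and the last 66 bases before the start.
Isg15: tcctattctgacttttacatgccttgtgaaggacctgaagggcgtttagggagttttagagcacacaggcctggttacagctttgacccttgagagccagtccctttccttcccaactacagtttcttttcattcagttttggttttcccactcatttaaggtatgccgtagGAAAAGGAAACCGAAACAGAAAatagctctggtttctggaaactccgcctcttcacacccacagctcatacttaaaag
This motif was in 3.49% of all windows, 2.77% of those of tested genes and 40.7% of the 27 windows of interferon signalling and effector genes. These were listed partly because they are known to respond to interferon, so the share describes the list and not the set difference.

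Most matrix genes tested had higher values in replicates 1 and 2, and a minority were counted. Of 133 listed 88 passed the filter, with 74 above 0 and 14 below. The count held 12 as higher and 0 as lower, against 1.66% and 0.635% of all genes. The median was 0.23 (0.24 without siFAM129B replicate 4, with 7 counted). Mmp3, the matrix protease stromelysin, had 17.6 and 14.5 FPKM with siFAM129B and 16.8 and 15.4 FPKM with siNC in replicates 1 and 2, against 7.05 and 6.24 FPKM with siFAM129B and 6.34 and 3.08 FPKM with siNC in replicates 3 and 4. The sets did not overlap, and the difference of 1.40 ± 0.20 (1.42 over 7 libraries) was the second largest among genes of at least 5 FPKM. Ogn, the small proteoglycan mimecan, had 50.7 and 51.8 FPKM with siFAM129B and 58.8 and 51.5 FPKM with siNC in replicates 1 and 2, against 37.5 and 13.9 FPKM with siFAM129B and 27.5 and 21.8 FPKM with siNC in replicates 3 and 4. Ogn did not overlap either, at 1.13 ± 0.26 (0.86 over 7 libraries), with its lowest value in siFAM129B replicate 4. Mfap5, a microfibril protein, had 12.7 and 11.5 FPKM with siFAM129B and 10.9 and 11.3 FPKM with siNC in replicates 1 and 2, against 6.69 and 8.90 FPKM with siFAM129B and 5.09 and 4.92 FPKM with siNC in replicates 3 and 4, a difference of 0.80 ± 0.12 (0.91 over 7 libraries). Lama4, a laminin chain of basement membranes, had 15.2 ± 1.08 FPKM in replicates 1 and 2 and 8.96 ± 1.11 FPKM in replicates 3 and 4 (SD, n = 4 each), a difference of 0.70 ± 0.10 (0.65 over 7 libraries).

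Among collagens 14 of 18 tested were above 0, with a median of 0.32. Without overlap in either siRNA group 12 were higher and 2 lower, against 14.1% and 14% of all genes. Col3a1, the fibrillar collagen type III, had 561 and 522 FPKM with siFAM129B and 566 and 553 FPKM with siNC in replicates 1 and 2, against 387 and 324 FPKM with siFAM129B and 389.9 and 325 FPKM with siNC in replicates 3 and 4. The lowest library of replicates 1 and 2, at 522 FPKM, was above the highest of replicates 3 and 4, at 389.9 FPKM; the difference was 0.63 ± 0.09 (0.58 over 7 libraries), just under 1.5-fold over 7 libraries. Col1a1, the main chain of type I collagen, had 52.6 ± 2.11 FPKM in replicates 1 and 2 and 40.9 ± 6.42 FPKM in replicates 3 and 4 (SD, n = 4 each), a difference of 0.37 ± 0.11 (0.45 over 7 libraries). Fn1, fibronectin, had 685 ± 22.4 FPKM in replicates 1 and 2 and 486 ± 89.7 FPKM in replicates 3 and 4 (SD, n = 4 each), a difference of 0.51 ± 0.14 (0.36 over 7 libraries). Neither Col1a1 nor Fn1 reached 1.5-fold. Col12a1 and Col8a1 had their lowest values in siFAM129B replicate 4 and left the count over 7 libraries: Col12a1 differed by 0.70 ± 0.34 (0.29 over 7 libraries) and Col8a1 by 0.63 ± 0.26 (0.32 over 7 libraries). Fibroblast markers were measured beside the matrix lists. The 6 markers summed to 453 to 523 FPKM in replicates 1 and 2 and 308 to 470 FPKM in replicates 3 and 4, with Ly6a the most abundant and Tcf21 listed at 0. The overlap came from siFAM129B replicate 4 alone, and the other 3 libraries of its set were at 308 to 397 FPKM. The 3 markers that passed the filter were all above 0 with a median of 0.45 (0.40 without siFAM129B replicate 4), against 0.23 for the matrix genes; their part in the matrix difference was not tested.

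Most proliferation genes had lower values in replicates 1 and 2, by small amounts. Of 117 listed 115 passed the filter, 33 were above 0 and 82 below, and the median was -0.14 (-0.10 without siFAM129B replicate 4). By the count 1 was higher and 0 lower, against 1.66% and 0.635% of all genes, so nothing is read from the count. Among the 3 proliferation lists the shift was largest in DNA replication. The CDK inhibitor and G1 list leaned the other way, with 15 of 22 above 0, 7 below and a median of 0.09. Without siFAM129B replicate 4, 12 of its members were above 0 and 10 below, with a median of 0.07. All 49 replication genes were below 0, with and without siFAM129B replicate 4. Of these 29 were lower without overlap within either siRNA group, against 14% of all genes. The median was -0.22 (-0.20 without siFAM129B replicate 4), yet 0 reached 1.5-fold. Mcm5, a subunit of the replicative helicase, had 49.5 and 47.9 FPKM with siFAM129B and 50.8 and 49.6 FPKM with siNC in replicates 1 and 2, against 58.8 and 84.7 FPKM with siFAM129B and 63.7 and 68.3 FPKM with siNC in replicates 3 and 4. Mcm3, of the same helicase, differed by -0.44 ± 0.10 (-0.34 over 7 libraries) and Mcm5 by -0.46 ± 0.11 (-0.34 over 7 libraries). Orc6, of the origin recognition complex, differed by -0.43 ± 0.08 (-0.37 over 7 libraries), and Ccne1, cyclin E of the G1 list, by -0.56 ± 0.10 (-0.46 over 7 libraries).

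Mcm5 is shown as the replication gene with the largest difference (chr8:75109259-75109508, plus strand, RefSeq GRCm38.p6). Capitals mark 2 overlapping matches to the E2F motif TTTNGCGC, beginning 153 and 149 bases before the start.
Mcm5: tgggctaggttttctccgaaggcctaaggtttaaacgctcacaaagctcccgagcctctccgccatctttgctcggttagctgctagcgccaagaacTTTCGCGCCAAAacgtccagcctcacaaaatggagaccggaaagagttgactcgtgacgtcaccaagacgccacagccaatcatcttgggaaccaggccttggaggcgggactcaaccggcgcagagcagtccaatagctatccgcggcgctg
This motif was in 1.38% of all windows, 2.67% of those of tested genes and 27.5% of the 40 DNA replication windows. DNA replication genes are known to be driven by E2F factors, so the share describes the list and not the set difference.

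Mitosis genes were nearer to 0: 26 of 44 were below 0, 0 were counted, and the median was -0.04. It was -0.075, with 33 of 44 below 0, without siFAM129B replicate 4, and 0.015 when libraries were scaled to an equal FPKM sum. Mki67, the proliferation marker, had 66.6 and 72.4 FPKM with siFAM129B and 75.5 and 74.9 FPKM with siNC in replicates 1 and 2, against 81.1 and 86.4 FPKM with siFAM129B and 82.3 and 90.4 FPKM with siNC in replicates 3 and 4, without overlap within either siRNA group. Top2a, topoisomerase II alpha, had 155 ± 7.04 FPKM in replicates 1 and 2 and 155 ± 15.2 FPKM in replicates 3 and 4 (SD, n = 4 each), a difference of 0.0059 ± 0.076 (-0.054 over 7 libraries). The CDK inhibitor Cdkn1a, which rises when myoblasts leave the cycle, had 110.2 ± 6.89 FPKM in replicates 1 and 2 and 103 ± 20.1 FPKM in replicates 3 and 4 (SD, n = 4 each), a difference of 0.11 ± 0.13 (0.26 over 7 libraries). Its highest value, 133 FPKM, was in siFAM129B replicate 4, and within siNC its sets did not overlap. Rb1, the retinoblastoma protein, was the counted gene, at 0.60 ± 0.23 (0.33 over 7 libraries), and left the count over 7 libraries. Btg2, an antiproliferative gene, had 9.39 and 10.2 FPKM with siFAM129B and 9.03 and 9.90 FPKM with siNC in replicates 1 and 2, against 7.44 and 6.57 FPKM with siFAM129B and 5.90 and 6.09 FPKM with siNC in replicates 3 and 4; its sets did not overlap.

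Several of the genes lowest in replicates 1 and 2 were of ribosome biogenesis, polyamine synthesis and stress responses. A list of 57 ribosome biogenesis genes was written down after the values had been seen. Of these 55 were below 0, 49 were lower without overlap and 16 were counted lower. The median was -0.48 (8 counted and -0.43 without siFAM129B replicate 4). Among all genes 14% were lower without overlap and 0.635% were counted lower. The list was chosen for its direction, so its counts describe it and support nothing. Gnl3, nucleostemin, had 25.0 and 25.0 FPKM with siFAM129B and 27.8 and 29.3 FPKM with siNC in replicates 1 and 2, against 44.9 and 49.3 FPKM with siFAM129B and 45.4 and 55.5 FPKM with siNC in replicates 3 and 4. Nop2, an rRNA methyltransferase, had 22.5 and 21.6 FPKM with siFAM129B and 22.8 and 23.8 FPKM with siNC in replicates 1 and 2, against 32.2 and 52.3 FPKM with siFAM129B and 36.5 and 45.1 FPKM with siNC in replicates 3 and 4. Nolc1, a nucleolar phosphoprotein, had 23.7 and 22.7 FPKM with siFAM129B and 25.6 and 27.2 FPKM with siNC in replicates 1 and 2, against 37.1 and 57.7 FPKM with siFAM129B and 41.7 and 46.2 FPKM with siNC in replicates 3 and 4. In all 3 genes every library of replicates 1 and 2 lay below every library of replicates 3 and 4, and the differences were -0.84 ± 0.08 (-0.80 over 7 libraries) for Gnl3, -0.82 ± 0.15 (-0.68 over 7 libraries) for Nop2 and -0.84 ± 0.14 (-0.69 over 7 libraries) for Nolc1. Srm, spermidine synthase of the polyamine pathway, had 24.4 and 26.4 FPKM with siFAM129B and 22.1 and 27.9 FPKM with siNC in replicates 1 and 2, against 39.8 and 75.4 FPKM with siFAM129B and 48.6 and 46.9 FPKM with siNC in replicates 3 and 4. It had the largest negative difference among genes of at least 5 FPKM, -1.0 ± 0.18 (-0.80 over 7 libraries). Odc1, ornithine decarboxylase, the rate-limiting enzyme before it, did not overlap either but missed 1.5-fold, at -0.51 ± 0.07 (-0.50 over 7 libraries). Of the 6 polyamine genes, listed after the values were seen, 4 were below 0 and 2 above, 1 was counted lower and the median was -0.15 (-0.21 over 7 libraries). Of cytosolic ribosomal protein genes, 76 of 78 were below 0 with a median of -0.20, and without siFAM129B replicate 4 44 of 78 with a median of -0.0033. Rpl21 and Rpl26 belong to families with many processed copies, and their counts are uncertain.

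Nop2 is shown because it holds CACGTG, the E-box bound by Myc and Max (chr6:125131633-125131882, plus strand, RefSeq GRCm38.p6). Capitals mark it 60 bases before the start.
Nop2: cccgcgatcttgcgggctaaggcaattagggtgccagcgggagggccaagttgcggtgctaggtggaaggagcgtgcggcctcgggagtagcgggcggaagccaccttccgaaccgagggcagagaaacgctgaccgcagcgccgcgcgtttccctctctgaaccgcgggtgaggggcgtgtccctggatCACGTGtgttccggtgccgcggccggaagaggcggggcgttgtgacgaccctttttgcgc
CACGTG was in 7.24% of all windows, 10.6% of those of tested genes and 25.0% of the 48 ribosome biogenesis windows. Of genes counted lower 26.9% of 52 windows held it, and of genes counted higher 8.21% of 134. The ribosome biogenesis list and the genes counted lower were picked on these values and share genes. Their shares describe them and support nothing, and a role of Myc was not tested.

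Most genes of the unfolded protein and Nrf2 lists had lower values in replicates 1 and 2, and a minority were counted; over all genes 0.635% were counted lower. In the unfolded protein and integrated stress list 20 of 24 were below 0, 5 were counted lower and 1 higher, and the median was -0.34. Without siFAM129B replicate 4, 21 were below 0, 3 were counted lower and 0 higher, and the median was -0.27. Chac1, a glutathione-degrading target of ATF4, had 8.25 and 7.29 FPKM with siFAM129B and 8.29 and 7.89 FPKM with siNC in replicates 1 and 2, against 12.2 and 17.7 FPKM with siFAM129B and 15.2 and 18.4 FPKM with siNC in replicates 3 and 4. The sets did not overlap, and the difference was -0.90 ± 0.13 (-0.81 over 7 libraries). Among Nrf2 targets 14 of 16 were below 0 with a median of -0.24 and 1 counted, Hmox1, heme oxygenase. Hmox1 had 29.6 and 31.8 FPKM with siFAM129B and 29.3 and 31.1 FPKM with siNC in replicates 1 and 2, against 48.0 and 70.6 FPKM with siFAM129B and 57.4 and 71.3 FPKM with siNC in replicates 3 and 4, a difference of -0.98 ± 0.13 (-0.89 over 7 libraries). Others of the lowest 10 genes belong to none of the lists. Tfrc, the transferrin receptor that takes up iron, had 23.03 and 24.3 FPKM with siFAM129B and 27.8 and 24.3 FPKM with siNC in replicates 1 and 2, against 47.5 and 28.7 FPKM with siFAM129B and 49.0 and 59.4 FPKM with siNC in replicates 3 and 4. Ass1, argininosuccinate synthase, differed by -0.91 ± 0.16 (-0.74 over 7 libraries), and Dctd, a deaminase of deoxycytidylate, by -0.85 ± 0.09 (-0.79 over 7 libraries).

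Of the 10 genes highest in replicates 1 and 2, 4 more belong to none of the lists. Stc1, the secreted glycoprotein stanniocalcin, had 19.4 and 15.6 FPKM with siFAM129B and 17.9 and 14.5 FPKM with siNC in replicates 1 and 2, against 7.63 and 3.57 FPKM with siFAM129B and 5.20 and 4.08 FPKM with siNC in replicates 3 and 4. It had the largest difference among genes of at least 5 FPKM, 1.58 ± 0.20 (1.40 over 7 libraries), and did not overlap between the sets. Enpp3, a cell-surface nucleotide pyrophosphatase, had 11.6 and 10.4 FPKM with siFAM129B and 11.03 and 10.3 FPKM with siNC in replicates 1 and 2, against 5.89 and 2.92 FPKM with siFAM129B and 4.78 and 4.04 FPKM with siNC in replicates 3 and 4. Kcnj2, the inward-rectifier potassium channel Kir2.1, had 26.01 and 23.3 FPKM with siFAM129B and 25.98 and 20.7 FPKM with siNC in replicates 1 and 2, against 16.3 and 6.10 FPKM with siFAM129B and 12.8 and 8.88 FPKM with siNC in replicates 3 and 4. Zim1, an imprinted zinc finger gene, differed by 1.15 ± 0.42 (0.63 over 7 libraries); it was at 0.742 FPKM in siFAM129B replicate 4 and at 5.82 to 6.82 FPKM in the other 3 libraries of its set.

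**Figure D4:**
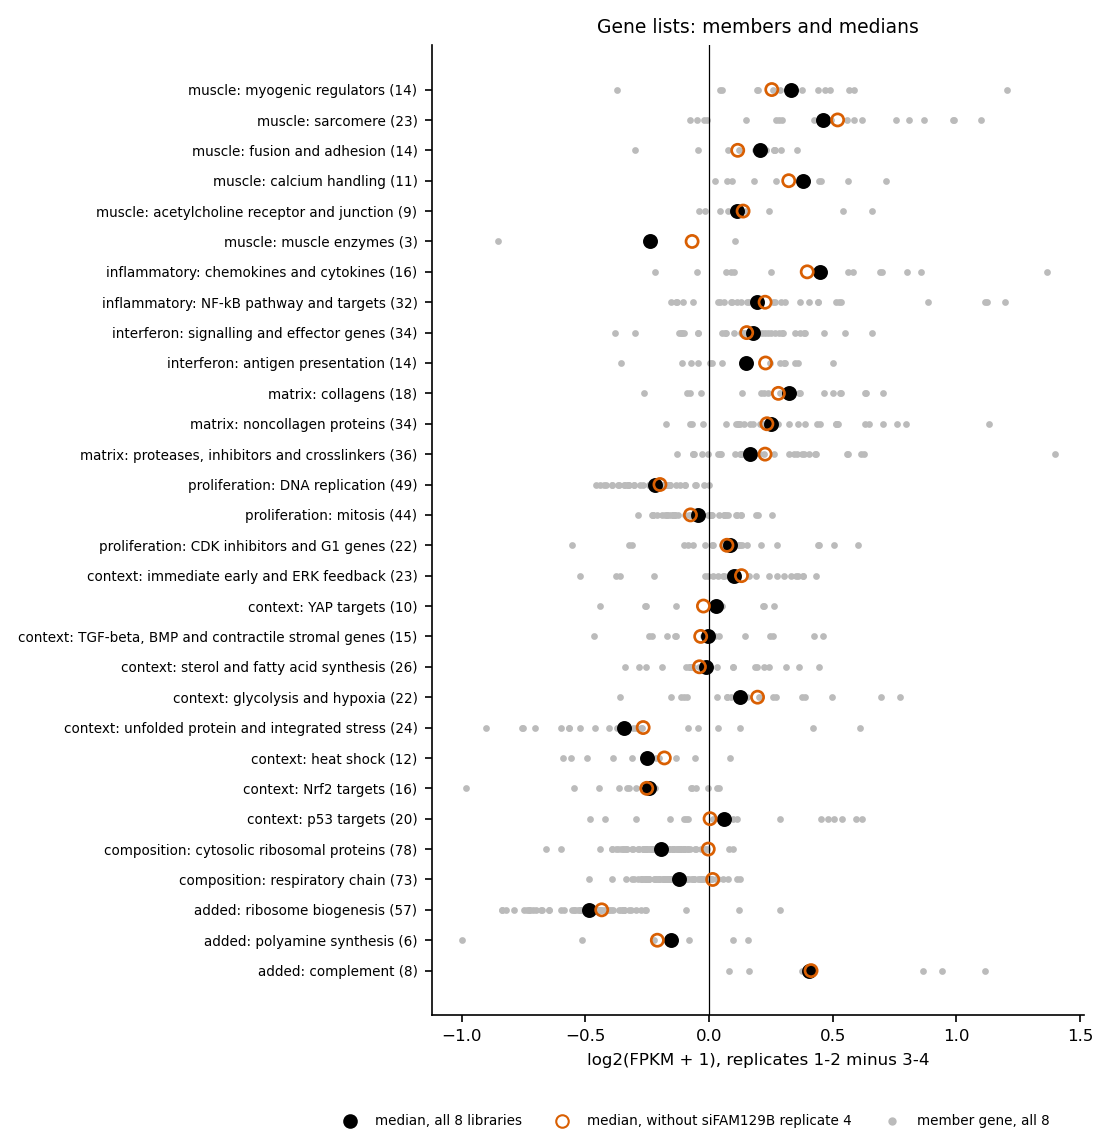
Difference in log2(FPKM + 1), replicates 1 and 2 minus 3 and 4, for each list (number of genes tested in brackets); grey points are genes over all 8 libraries, black points list medians over all 8, and open orange circles medians without siFAM129B replicate 4. Medians lie above 0 for most muscle lists and all inflammatory, interferon and matrix lists and below 0 for DNA replication (-0.22), stress and ribosome biogenesis (-0.48), and the orange circles of ribosomal proteins and the respiratory chain lie near 0.

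**Figure D5:**
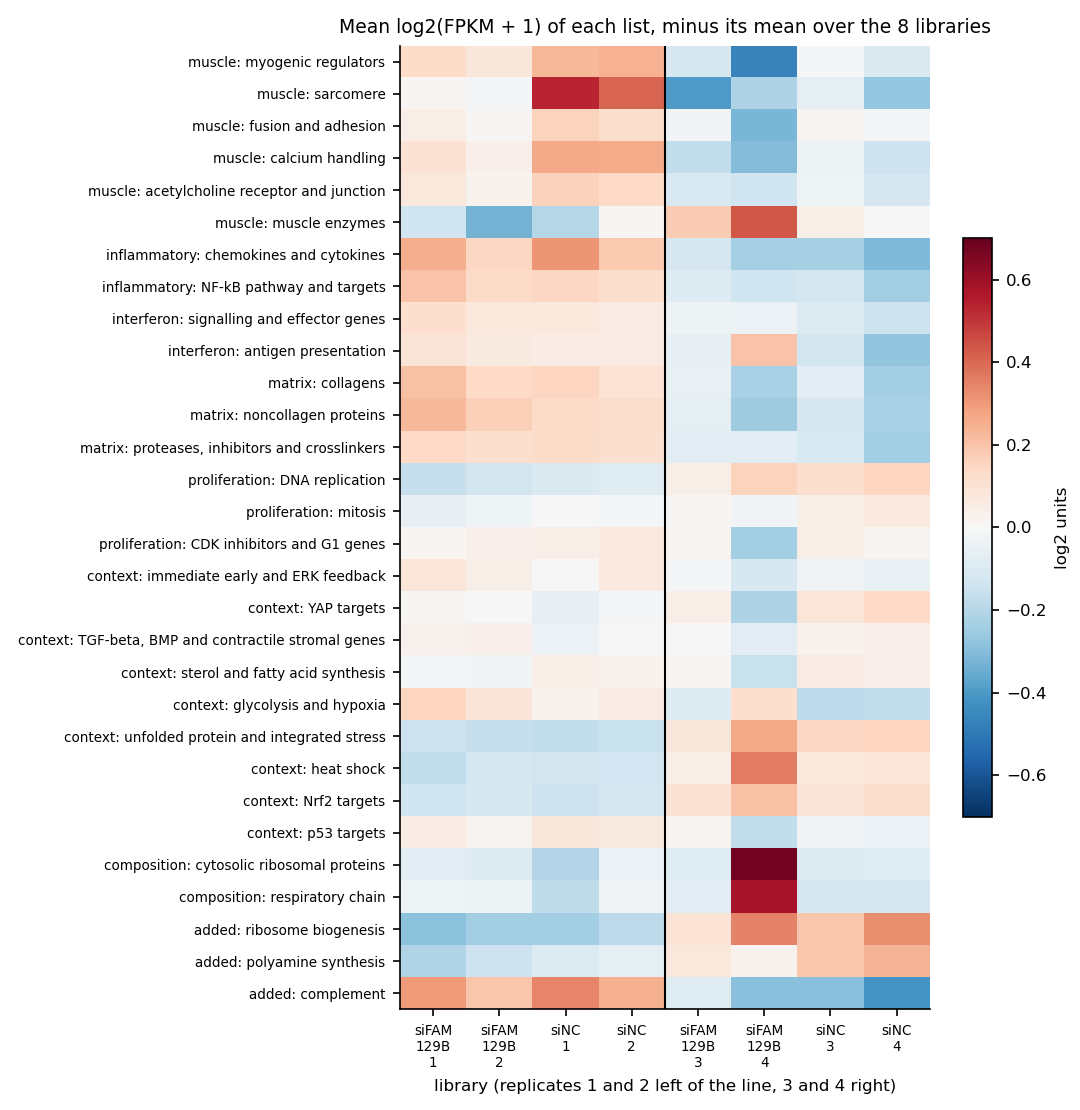
Mean log2(FPKM + 1) of each list in each library, as the deviation from its mean over the 8 libraries; columns are libraries, with replicates 1 and 2 left of the line and replicates 3 and 4 right, and siFAM129B before siNC in each; lists marked added were written after the values were seen. Inflammatory and matrix lists are positive in all 4 left columns, the sarcomere list is most positive in siNC replicates 1 and 2 (0.53 and 0.41), and siFAM129B replicate 4 is alone in its high ribosomal protein value (0.68).

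Markers of other cell types were measured beside these results. Endothelial markers summed to at most 0.38 FPKM in any library, with Tie1 and Emcn listed at 0. Adipocyte markers, led by Lpl, Cebpa and Pparg, summed to 30.1 to 30.7 FPKM in replicates 1 and 2. In replicates 3 and 4 they summed to 25.6 to 27.5 FPKM, without overlap. The members did not move together: of 3 that passed the filter, 2 were above 0 and 1 below. Lpl was higher in replicates 1 and 2, and Cebpa overlapped. Pparg went the other way, at 5.12 to 6.41 FPKM in replicates 1 and 2 and 6.89 to 9.13 FPKM in replicates 3 and 4. Satellite and reserve cell markers, mostly Sdc4, summed to 135 to 159 FPKM in replicates 1 and 2 and 115 to 144 FPKM in replicates 3 and 4, or 115 to 129.6 FPKM without siFAM129B replicate 4. The myoblast markers Myod1, Myf5, Des, Cdh15, Ncam1, Itga7 and Vim were all above a mean of 1 FPKM, with Vim the highest. The part of these markers in the results was not tested.

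At the edges of the rule, Prkd1 and Tlx2 were the last genes inside the filter on mean FPKM, and Plekha4 and Adam22, at 0.997 and 0.995 FPKM, the first outside it. Tgm2 at 0.59 and Shmt1 at -0.59 just reached 1.5-fold, while Zfp428 at -0.58 and Elk4 at 0.58 just missed it. Elk4 had 16.2 and 16.6 FPKM with siFAM129B and 15.6 and 15.6 FPKM with siNC in replicates 1 and 2, against 16.0 and 2.78 FPKM with siFAM129B and 14.8 and 15.4 FPKM with siNC in replicates 3 and 4. Across 10978 genes with a known transcript length, the set difference had a Spearman correlation of 0.34 with length and -0.28 with GC content over all 8 libraries, and -0.02 and 0.11 without siFAM129B replicate 4.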

How the data were processed

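Polyadenylated RNA of 8 libraries was sequenced, per the labels' protocols. The authors deposited 1 FPKM value per gene and library; the submitters' processing notes name the genome build mm9, while the sources used here do not give the aligner, the counter or the annotation. Since FPKM values are relative to the library, a shift in the composition of 1 library moves all of its genes. Columns were matched to samples by letter and replicate number; for the F columns this rests on the sample titles. The library codes in the descriptions do not divide replicates 1 and 2 from 3 and 4, and no batch is named.

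Of 16479 genes above 0 in some library, 16478 had values that were whole-read multiples within 0.001 of a read (923 with a value in only 1 library, which come out whole by construction), and Neat1 did not. The totals, taken as the smallest whole numbers, are lower bounds on depth, and 5400 genes were at 0 throughout. No libraries of a group agreed within sampling noise (lowest chi-square per gene 5.58).

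Set differences, their SE and the siRNA by set interaction were fitted in limma 3.58.1 (under R 4.3.3) to log2(FPKM + 1), the prior variance following a trend with the mean, over genes of mean FPKM of at least 1. P-values of the interaction were Benjamini-Hochberg adjusted with a threshold of 0.05. The log2(FPKM + 1) scale understates the differences of low genes. The code was tested on simulated data. Members and lists were chosen with earlier results of these data known; the ribosome biogenesis, polyamine and complement lists were added after values were seen. Named genes were the 10 highest and 10 lowest of those counted at a mean of at least 5 FPKM, the 4 (context lists 2) most different of each list, 15 fixed genes, the 5 largest interactions and the genes at the thresholds; further members of the added lists were picked after values were seen. Alternatives were another pseudocount, filters, scalings, voom, array weights, a replicate block, each library left out and each siRNA group alone. Promoter windows came from RefSeq on GRCm38.p6, matched by symbol, the first window where a gene has several. The values of a few genes that the rule names are not reported here.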

Additional observations from a re-analysis of the deposited data

Results flagged for a closer look

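In 322 groups of 4 libraries, 22 held a value standing apart from the other 3 by Dixon's 95% criterion; chance alone flags about 1 in 20 groups. All but 1 were siFAM129B replicate 4.

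In that library 10 named genes had a value far below the other 3 siFAM129B libraries: Jam2 with 30.8 FPKM, Cacna2d1 with 6.91, Ect2 with 13.97, Cdkn1b with 18.8, Lats2 with 12.4, Insig1 with 28.03, Eda2r with 2.39, Cd55 with 2.43, Lnpep with 1.36 and Elk4 with 2.78 FPKM. Zbed6, at 1.24 FPKM, and Lmbrd2, at 0.425 FPKM, were also alone at the low end. Far above the others were Eno3 with 488 FPKM, Plk1 with 95.2, Fam129b with 128, Vim with 3823 and Zfp428 with 15.0 FPKM. Its mean log2(FPKM + 1) was the lowest for the CDK inhibitor and G1 list, at 4.57, and for p53 targets, at 4.00. It was the highest for cytosolic ribosomal proteins, at 8.91, and for the respiratory chain, at 6.76.

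The other library was siNC replicate 2, where Top2a was lowest at 156 FPKM, against 164 to 165 FPKM in the other siNC libraries.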

How the results depend on the processing

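The signs of the 5 theme medians and of all 58 counted named genes were the same in the 18 other settings. For the counted genes this was largely fixed in advance, since the count already required separation within each siRNA group. Leaving out 1 library or keeping 1 siRNA group cannot turn such a sign. Counts moved more. With a pseudocount of 0.1, 335 genes were higher and 110 lower in replicates 1 and 2; with voom, 352 and 115; within siFAM129B alone, 389 and 158. With an equal FPKM sum 45 were lower, and with array weights 35. Leaving out 1 library gave 130 to 403 higher and 31 to 164 lower genes, the extremes without siFAM129B replicate 4 and without siFAM129B replicate 3, and 0 to 6005 interaction calls. The interferon median was 0.24 with a pseudocount of 0.1 and with voom, 0.12 at a mean of at least 5 FPKM and in siFAM129B alone, 0.10 after quantile normalization, and 0.12 to 0.21 with 1 library left out. Without the filter the medians were 0.19 for muscle, 0.18 for inflammatory and 0.16 for matrix genes. The inflammatory median was 0.19 at a mean of at least 5 FPKM and 0.32 with an equal FPKM sum. The matrix median was 0.29 in siFAM129B alone and 0.21 to 0.30 with 1 library left out. The proliferation median was -0.081 with an equal FPKM sum, -0.092 after quantile normalization, -0.11 with array weights and -0.17 to -0.10 with 1 library left out.

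Some smaller lists turned sign. Muscle enzymes were at 0.10 without the filter, and mitosis at 0.015 with an equal FPKM sum. TGF-beta and stromal genes were at 0.053 with an equal FPKM sum and -0.034 to 0.027 with 1 library left out. Histone genes were at -0.062 without the filter, -0.11 after quantile normalization and -0.033 to 0.045 with 1 library left out. The causes were not tested.

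The replicate number as a block left 183 higher and 70 lower genes and 0 interaction calls. The 183 and 70 could not change: in this balanced design the block leaves the fitted difference as it is, and the count uses no SE. Deviations of same-numbered libraries correlated at 0.53, 0.25, 0.04 and 0.12 for replicates 1 to 4; all were positive but not all were over 0.1, so pairing was not assumed. Only 2 of 8 libraries correlated best with their own number. Arms of 2 libraries limit every value here, and 1 library alone sets many of the counts.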

Other observations

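Complement genes, listed after the values were seen, were above 0 in 8 of 8 tested, with a median of 0.40 (0.41 over 7 libraries). The count held 3 as higher in replicates 1 and 2, against 1.66% of all genes. Serping1, the C1 inhibitor, had 4.80 and 3.00 FPKM with siFAM129B and 4.95 and 4.75 FPKM with siNC in replicates 1 and 2, against 2.44 and 2.52 FPKM with siFAM129B and 1.26 and 1.64 FPKM with siNC in replicates 3 and 4. Serping1 did not overlap between the sets within either siRNA group. In the glycolysis and hypoxia list 17 of 22 were above 0, with a median of 0.13 (0.20 over 7 libraries). The count held 2 as higher, against the same 1.66%. Bnip3, a hypoxia-induced mitophagy receptor, had 66.1 and 70.2 FPKM with siFAM129B and 67.0 and 66.4 FPKM with siNC in replicates 1 and 2, against 47.3 and 36.0 FPKM with siFAM129B and 38.8 and 35.2 FPKM with siNC in replicates 3 and 4. Pdk1, the kinase that inhibits pyruvate dehydrogenase, differed by 0.70 ± 0.11 (0.61 over 7 libraries), and Bnip3 by 0.77 ± 0.10 (0.71 over 7 libraries).

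Heat shock genes were below 0 in 11 of 12, with a median of -0.25 (-0.18 over 7 libraries). The count held 1 as lower (0 over 7 libraries), against 0.635% of all genes. Hsph1, a large heat shock protein, had 43.4 and 48.3 FPKM with siFAM129B and 48.3 and 46.4 FPKM with siNC in replicates 1 and 2, against 67.3 and 71.1 FPKM with siFAM129B and 66.7 and 71.3 FPKM with siNC in replicates 3 and 4, without overlap between the sets. Hspe1, the mitochondrial cochaperonin, differed by -0.59 ± 0.16 (-0.41 over 7 libraries) and was highest in siFAM129B replicate 4. Lists of p53 targets, YAP targets, sterol synthesis and immediate early genes had medians of 0.06, 0.03, -0.01 and 0.10. The count held 2 p53 targets as higher, against 1.66% of all genes, and 0 genes of the other 3 lists. The p53 targets counted were Eda2r, at 0.62 ± 0.29 (0.28 over 7 libraries), and Sesn1, at 0.59 ± 0.15 (0.43 over 7 libraries), and neither was counted over 7 libraries. Ctgf, a YAP target that encodes a matricellular protein, had 3.98 and 4.34 FPKM with siFAM129B and 5.04 and 5.49 FPKM with siNC in replicates 1 and 2, against 5.96 and 5.75 FPKM with siFAM129B and 7.26 and 8.07 FPKM with siNC in replicates 3 and 4.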
